A study of Homo sapiens with 11 samples.

Results

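NPAS4 and ARC, 2 genes best known from depolarised neurons, were followed in clone E6-1 of Jurkat, a line of human leukaemic T cells. They were found by symbol among the 44416 genes of the authors' comparison tables. Each symbol has 1 row, so the choice of the row of largest mean left out no other row, and both genes have an adjusted p in both comparisons. The poly(A)-enriched libraries came from cells treated for 30 min with 100 µM dieldrin, an organochlorine insecticide that blocks GABA-A receptors (3 libraries), with PMA at 100 µM, a phorbol ester that switches on protein kinase C (3 libraries), or with the solvent DMSO (3 libraries). Dieldrin and PMA were both given in DMSO, and 100 µM PMA, as labelled, is far above common use. A further pair of libraries, 1 from dieldrin cells and 1 from DMSO cells, was depleted of ribosomal RNA, and each came with a deposited list of sites of divergent transcription. Separate cultures are not mentioned for the 3 libraries within each condition. The authors' standard errors and p-values therefore reflect how far these libraries differ, and part or all of that may be technical. The pair was proposed with the values of these comparisons known, so their changes are given as a description and the authors' p-values are quoted as listed.

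NPAS4 encodes a transcription factor of the bHLH-PAS family, which pairs with ARNT or ARNT2 on DNA. In neurons its gene is switched on within minutes by calcium entry after depolarisation, and it in turn drives genes such as BDNF that adjust inhibitory synapses. ARC encodes a cytoskeleton-associated protein that promotes the internalisation of AMPA-type glutamate receptors. It descends from the gag gene of an ancient retrotransposon, and its protein can form capsid-like particles. Both are immediate-early genes, transcribed without new protein synthesis, and in neurons their promoters and enhancers are bound by CREB, SRF and MEF2.

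The NPAS4 promoter is shown because the poly(A) signal of this gene moved with dieldrin and its upstream bases hold a pair of CREB-type core motifs that point away from each other. The sequence is that of RefSeq on GRCh38.p14, plus strand, chr11:66420754-66421053, running from 250 bases before the start to 50 bases from it, and capitals mark each match to TGACG on either strand.
NPAS4 promoter: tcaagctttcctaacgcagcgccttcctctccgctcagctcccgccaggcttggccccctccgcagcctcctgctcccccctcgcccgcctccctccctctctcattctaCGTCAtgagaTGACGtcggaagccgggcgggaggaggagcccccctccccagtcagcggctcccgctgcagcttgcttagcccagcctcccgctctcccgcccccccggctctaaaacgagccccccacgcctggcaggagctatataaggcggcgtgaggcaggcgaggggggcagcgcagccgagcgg
The match on the minus strand lies 140 to 136 bases before the start and the match on the plus strand 130 to 126 bases before it. TGACG was present on either strand in 24.6% of the 35116 RefSeq promoter windows of the same length, and in at least 1 window of 28.4% of the 27305 genes in that table. The full palindrome TGACGTCA, held by 1.85% of the windows, was not in the NPAS4 window. Nor were CANNTG (68.7% of windows), TGANTCA (7.71%), TCGTG (17.0%), TATAAA (11.5%), the AP-2 box (21.4%), the CArG box (1.29%) or the MEF2 box (0.572%). CANNTG is the E-box, TGANTCA the AP-1 site and TCGTG a bHLH-PAS core, and matches to TGACG include any match to TGACGTCA. GC bases made up 70.0% of the window. The table holds 2 windows for NPAS4, of which the one that begins further upstream is printed. Motifs were searched as exact patterns, so TATATAAG, which the printed window holds, is no match to TATAAA. The other window is not described here.

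Levels came first from the mean over the 9 poly(A) libraries. The authors' deposited table gives NPAS4 (ENSG00000174576, chromosome 11, 66188475 to 66194178 on hg19, plus strand) a mean of 369 normalised counts, or 4.41 CPM, where 1 CPM is a mean of 83.7 counts. For ARC (ENSG00000198576, chromosome 8, 143692405 to 143696833, minus strand) the authors' deposited table gives a mean of 70.9 normalised counts, or 0.846 CPM. Neither gene overlaps another gene of the table on either strand. Values per library were not used here, so the groups are shown by the means that the authors' changes imply. NPAS4 stood at an implied mean of 709 normalised counts with dieldrin and 210 with PMA, against 187 with DMSO. ARC stood at 120 with dieldrin and 59.2 with PMA, against 33.7 with DMSO. Both genes were thus highest with dieldrin and lowest with DMSO, and for NPAS4 the means with PMA and DMSO lay close together. Whether the groups overlap library by library cannot be seen from these values. In bulk RNA, a larger share of cells with the transcript and more transcript per cell cannot be told apart.

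**Figure D1:**
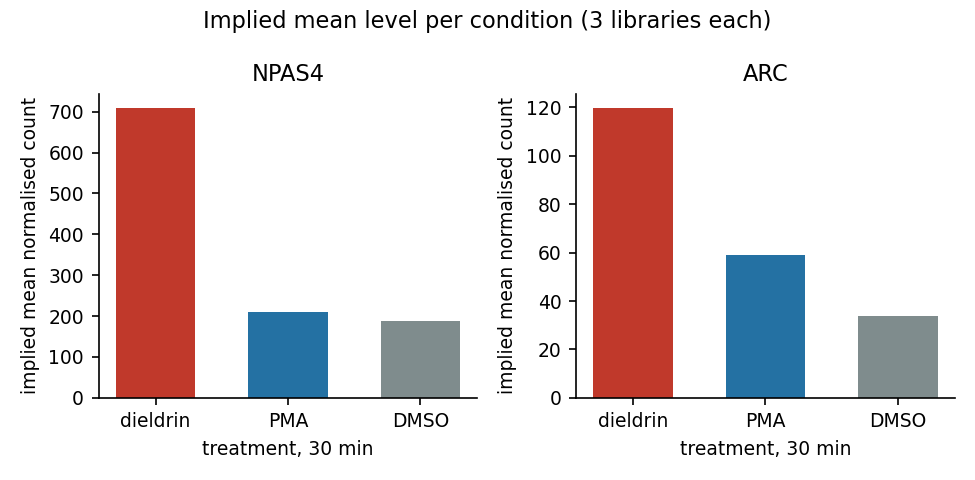
Implied mean normalised count of NPAS4 (left) and ARC (right) in Jurkat cells after 30 min of dieldrin, PMA or DMSO, 3 poly(A) libraries each. Bars are means worked out from the authors' changes and carry no error, because values per library were not used. Both genes are highest with dieldrin, at 709 and 120.

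Per kb of exon, which allows the genes to be compared, NPAS4 stood at 207 normalised counts with dieldrin and 61.4 with PMA, against 54.7 with DMSO. ARC stood at 40.0 with dieldrin and 19.8 with PMA, against 11.3 with DMSO, on the same scale per kb. NPAS4 was therefore the more abundant in each condition, at 5.17 times the level of ARC with dieldrin and 3.10 times with PMA, against 4.86 times with DMSO. Among 18567 genes with an adjusted p and an exon length, the level of NPAS4 per kb exceeded that of 53.1% with dieldrin and 36.0% with PMA, against 34.2% with DMSO. That of ARC exceeded 29.5% with dieldrin and 21.8% with PMA, against 15.5% with DMSO. Both genes were already detected with DMSO, and ARC was the lower of the pair in this ranking under each condition.

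With dieldrin both genes rose. The authors' deposited table lists NPAS4 with a shrunken log2 fold change of 1.50 ± 0.097 (SE, 3 libraries a group) against DMSO and an adjusted p of 2.45e-50. Unshrunken, the change of NPAS4 in the authors' deposited table is 1.92, or 3.78-fold. For ARC the authors' deposited table lists a shrunken log2 fold change of 0.61 ± 0.11 (SE) and an adjusted p of 4.79e-06. Unshrunken, the change of ARC in the authors' deposited table is 1.83, or 3.56-fold. The unshrunken folds of the 2 genes were thus alike, while shrinkage, which pulls less certain changes towards 0, kept 77.9% of the log2 change of NPAS4 and 33.5% of that of ARC. The median share kept among the higher genes was 75.2%. In this comparison 1.28% of 19280 tested genes were higher at an adjusted p under 0.05, and 1.02% lower. Among the 246 higher genes NPAS4 ranked 16th by the shrunken and 41st by the unshrunken change, and ARC 60th and 47th. By p, NPAS4 was 15th of all genes and ARC 115th.

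PMA did not give either gene a call. The authors' deposited table lists NPAS4 with a shrunken log2 fold change of 0.12 ± 0.10 (SE), 1.12-fold unshrunken, a p of 0.229 and an adjusted p of 1.00. For ARC the authors' deposited table lists 0.22 ± 0.11 (SE), 1.76-fold unshrunken, a p of 0.0421 and an adjusted p of 1.00. In this comparison 0.528% of 17612 tested genes were higher at an adjusted p under 0.05 and 0.0908% lower, and 3.73% had an unadjusted p under 0.05, below the 5% that a uniform p would give. The statistic of the PMA comparison had a robust spread of 0.689, where 1 would fit its p-values. The statistics were also divided by their own robust spread, a choice made with the data in view. ARC then had an adjusted p of 0.0917 and NPAS4 one of 0.590 with PMA, where 1.83% of genes were higher and 1.02% lower. With dieldrin both stayed higher, where 1.68% of genes were higher and 1.29% lower. The change of ARC with PMA therefore did not pass adjustment by either reading, though its unadjusted p was under 0.05. By the unshrunken change with PMA, ARC ranked 219th and NPAS4 2153rd of the 17612 tested genes.

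Set against each other, the changes with dieldrin and PMA differed by 1.38 ± 0.14 (SE) for NPAS4 on the shrunken log2 scale, dieldrin minus PMA. For ARC the difference was 0.39 ± 0.16 (SE). Unshrunken, the level with dieldrin was 3.37 times that with PMA for NPAS4 and 2.02 times for ARC. These errors leave out that both changes are measured against the same DMSO libraries. The genes were chosen with these values known, so the differences are a description with no test. In the order of levels, PMA and DMSO are neighbours for both genes, and neither gene's change between them passed after adjustment.

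**Figure D2:**
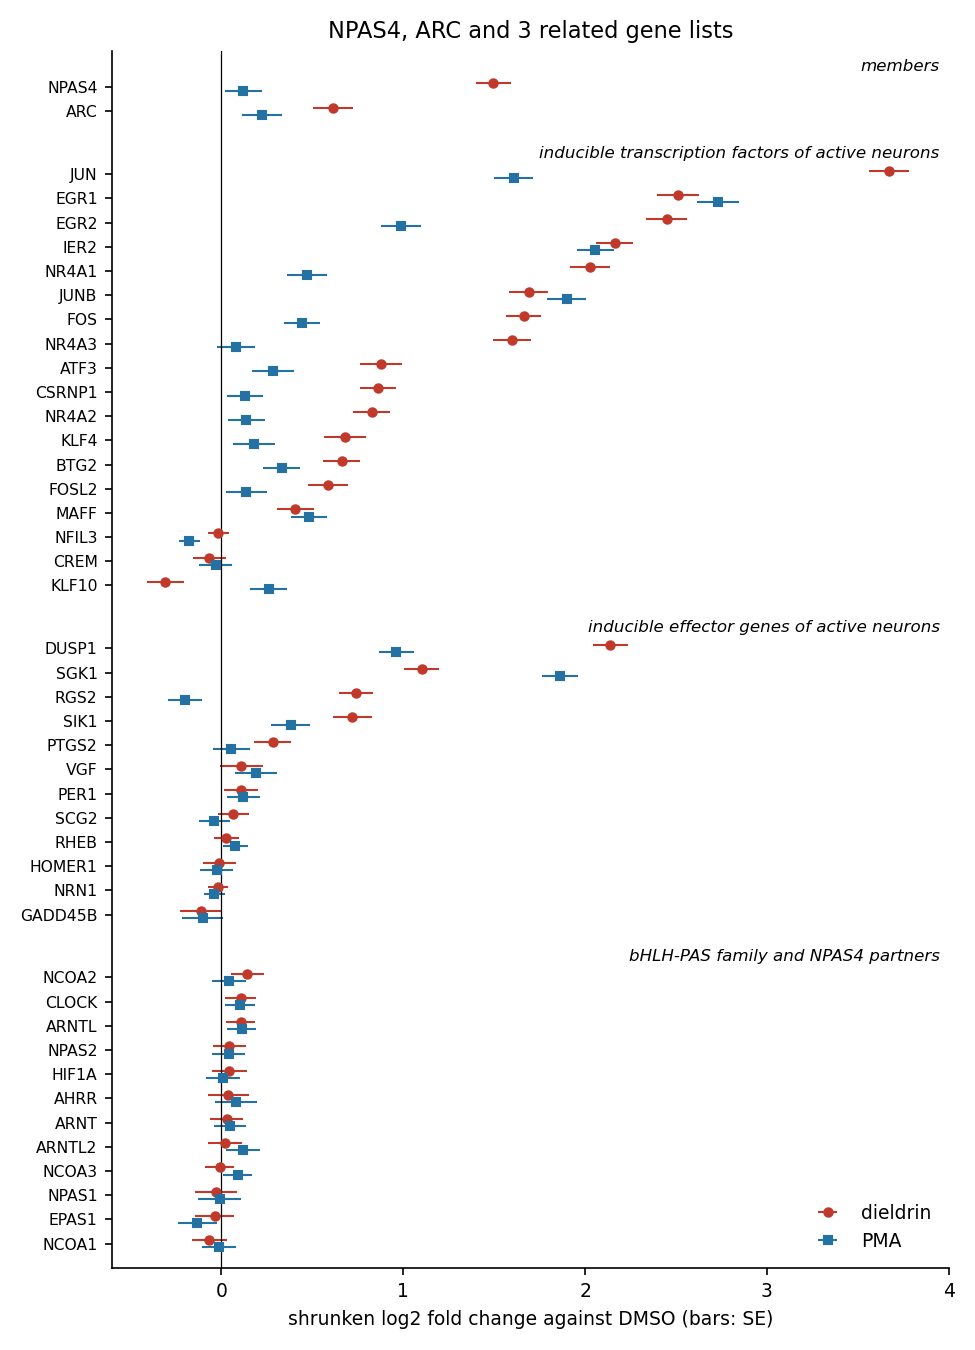
Shrunken log2 fold change against DMSO, with its SE, for dieldrin (circles) and PMA (squares). NPAS4 and ARC are at the top, followed by the tested members of 3 related lists. NPAS4 has 1.50 with dieldrin beside 0.12 with PMA, while none of the tested bHLH-PAS genes and partners passed with either.

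The first related list holds transcription factors that active neurons also induce. This and the other lists were chosen with earlier results of these data known, so their counts are a description. Of 18 tested, 15 rose with dieldrin, 0 fell and 3 did not pass, where 1.28% of all tested genes were higher. With PMA 8 rose, 0 fell and 10 did not pass, where 0.528% of all tested genes were higher. The median unshrunken log2 change of the 18 was 2.12 with dieldrin and 0.66 with PMA, where the medians of all genes tested were 0.0019 and -0.0044. By the unshrunken change of the authors' deposited table JUN, an AP-1 subunit, rose 38.8-fold with dieldrin and 5.81-fold with PMA (adjusted p 1.66e-246 and 2.07e-46). The zinc finger factor EGR2 rose 86.0-fold with dieldrin and 14.0-fold with PMA in the authors' deposited table. EGR1 rose 39.3-fold with dieldrin and 49.1-fold with PMA in the authors' deposited table, and IER2 rose 7.53-fold and 6.85-fold. JUNB rose 5.44-fold with dieldrin and 6.60-fold with PMA in the authors' deposited table. The other 3 factors of the list, named after their values were seen, are given no p-value there: in the authors' deposited table their unshrunken log2 changes with dieldrin are 5.87 for EGR3, 6.76 for EGR4 and 7.14 for FOSB. Why these 3 have no p-value is not stated, and whether a single library carries their changes cannot be seen. NPAS4 and ARC, at 3.78-fold and 3.56-fold with dieldrin, had unshrunken folds below those of 9 of the 15 factors that rose with dieldrin and above those of the other 6. Among the 15 factors that rose with dieldrin, 14 have a promoter in the RefSeq table and 12 of these hold TGACG, the motif capitalised in the NPAS4 promoter, which 28.4% of all genes in that table hold. TCGTG and the AP-2 box, both absent from the NPAS4 window, are each held by 7 of the 14, beside 19.8% and 24.7% of all genes. The remaining motifs, also absent from that window, are set beside their shares of all promoter windows. CANNTG is held by 8 of the 14 (68.7% of windows), TATAAA by 3 (11.5%) and the CArG box by 2 (1.29%). TGACGTCA (1.85%), TGANTCA (7.71%) and the MEF2 box (0.572%) are held by 1 each. TGACG was thus held by the most of the 14, and several other motifs, some held by only 1 to 3 genes, also exceed their background share. Whether any of these motifs has a part in the changes was not tested. The 15 factors were selected by the same comparison, so the motif counts are a description only.

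Effector genes that active neurons induce form the second list. Of 12 tested, 4 rose with dieldrin and 2 with PMA, and 0 fell with either, where 1.28% of all tested genes were higher with dieldrin and 0.528% with PMA. The median unshrunken log2 change of the 12 was 0.30 with dieldrin and 0.12 with PMA, beside 0.0019 and -0.0044 over all genes tested. The phosphatase gene DUSP1 rose 6.59-fold with dieldrin and 2.40-fold with PMA in the authors' deposited table. The kinase gene SGK1 rose 2.71-fold with dieldrin and 5.24-fold with PMA in the authors' deposited table. RGS2, a brake on G protein signalling, rose 1.89-fold with dieldrin in the authors' deposited table (adjusted p 4.19e-13) and stands at 0.832-fold with PMA (adjusted p 1.00). The salt-inducible kinase gene SIK1 rose 2.07-fold with dieldrin (adjusted p 6.31e-09) in the authors' deposited table and stands at 1.48-fold with PMA (adjusted p 0.0636). Other genes of this list were named after their values were seen. CYR61, a matricellular protein gene with a mean of 337 normalised counts, stands at 15.0-fold with dieldrin and 1.79-fold with PMA in the authors' deposited table, which gives it no p-value. Whether a single library carries the change of CYR61 cannot be seen either. The authors' deposited table gives BDNF, a neurotrophin gene and target of NPAS4 in neurons, a mean of 1.17 normalised counts and NPTX2, a synaptic pentraxin gene, one of 2.65, and neither has an adjusted p. HOMER1, a postsynaptic scaffold gene, had a mean of 2344 normalised counts and stands at 0.991-fold with dieldrin and 0.979-fold with PMA in the authors' deposited table, (adjusted p 1.00 in each).

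The third list holds relatives and partners of NPAS4. Of 12 tested bHLH-PAS genes and coactivators, 0 passed with either treatment by the authors' adjusted p, nor did any have an unadjusted p under 0.05 (0 with each). With 1.28% of all tested genes higher and 1.02% lower with dieldrin, and 0.528% and 0.0908% with PMA, a count of 0 among 12 is near the background. On the unshrunken log2 scale they ran from -0.12 to 0.18 with dieldrin and from -0.47 to 0.21 with PMA. ARNT, the partner of higher mean, stood at 2071 normalised counts in the authors' deposited table, with folds of 1.03 with dieldrin and 1.04 with PMA. HIF1A, the oxygen-sensing member, had a mean of 4479 in the authors' deposited table and folds of 1.04 and 1.01. The closest namesakes and the second partner were named after their values were seen. NPAS1 had a fold of 0.956 and NPAS2 one of 1.04 with dieldrin in the authors' deposited table, and NPAS3 and ARNT2 had means of 2.71 and 2.10 normalised counts and no adjusted p.

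Calls among genes upstream and downstream in the neuronal pathway are to be read beside the background of all tested genes. With dieldrin 1.28% of these were higher, 1.02% were lower and 8.36% had an unadjusted p under 0.05 in either direction. The same shares with PMA were 0.528%, 0.0908% and 3.73%. Of 27 tested calcium, SRF, MEF2 and CREB regulators, 0 passed with either treatment by the authors' adjusted p, while at an unadjusted p under 0.05 there were 4 higher with dieldrin and 0 with PMA. CALM3 and CALM2, the calmodulin genes of highest mean, had folds of 1.07 and 0.960 with dieldrin in the authors' deposited table. Of 17 calcium channel, calcium store and GABA-A receptor genes tested with dieldrin 1 fell, STIM1, the calcium sensor of the endoplasmic reticulum, at 0.798-fold (adjusted p 0.0393) in the authors' deposited table. With PMA 0 of 16 passed, also at an unadjusted p under 0.05. Of 15 ARC partner genes 1 fell with dieldrin, AP2A1, a subunit of the clathrin adaptor, at 0.730-fold (adjusted p 0.0381) in the authors' deposited table. With PMA 0 of the 15 passed, also at an unadjusted p under 0.05. Among gag-derived genes, the wider family to which ARC belongs by origin, 0 of 13 passed with dieldrin, where 4 were lower at an unadjusted p under 0.05. With PMA 1 of 11 rose, MOAP1, a gene of apoptosis signalling, at 1.19-fold (adjusted p 0.0130) in the authors' deposited table.

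The cells carried the profile of T cells. All 13 T cell markers found had means of at least 85.4 normalised counts, and per kb of exon LCK, a T cell kinase gene, stood at 20825 with dieldrin and 20948 with PMA, against 20996 with DMSO. Of the 22 neuron markers 13 had means under 10 normalised counts, and the defining neuronal gene RBFOX3 had a mean of 4.51 in the authors' deposited table. The summed implied mean of the neuron markers was 1231 with dieldrin and 1181 with PMA, against 1205 with DMSO, led by DLG4 and SYP. In the list of neuron markers 0 of 11 passed with dieldrin and 0 of 9 with PMA by the authors' adjusted p. Nor did any have an unadjusted p under 0.05 (0 with each). Of all tested genes 1.28% were higher and 1.02% lower with dieldrin, and 0.528% and 0.0908% with PMA. An unadjusted p under 0.05 was held by 8.36% with dieldrin and 3.73% with PMA. Counts of 0 in so short a list are therefore near the background. The 12 markers of other blood and stromal cells summed to 3046 with dieldrin and 3171 with PMA, against 3203 with DMSO, most of it from CD79A at a mean of 2894.

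**Figure D3:**
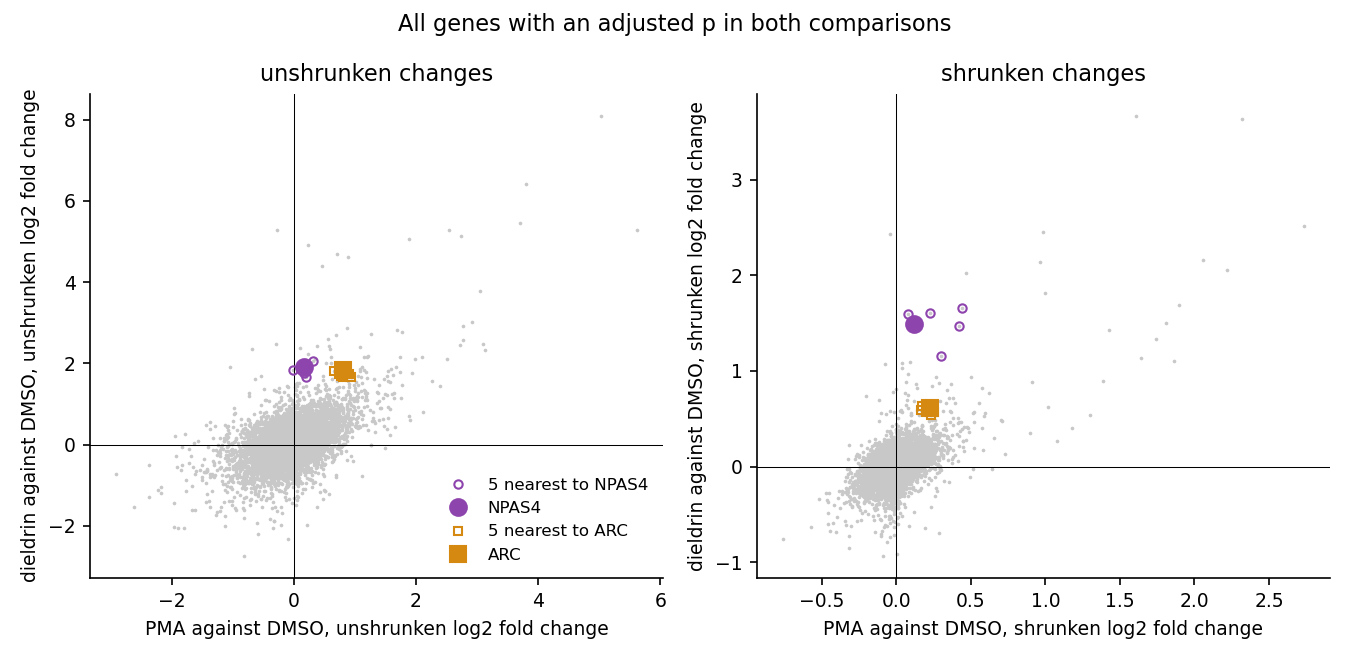
Changes against DMSO of the 17612 genes with an adjusted p in both comparisons, PMA on the horizontal and dieldrin on the vertical axis, unshrunken (left) and shrunken (right). Large symbols are NPAS4 and ARC, and open symbols are the 5 genes nearest to each. NPAS4 lies near 0 for PMA, and its nearest genes differ between the panels.

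The genes whose pattern was most like that of each member were sought by the distance between the pairs of unshrunken log2 changes. The 2 comparisons rest on 3 conditions with shared DMSO libraries, so the distance describes position and nothing more. Nearest to NPAS4 were the histone gene HIST2H2BC (distance 0.061), LINC00936 (0.16), AP000769.7 (0.20), the T cell costimulator gene ICOS (0.21) and RP11-686O6.1 (0.26). Among these AP000769.7, at a mean of 21.2 normalised counts, did not pass with dieldrin in the authors' test (adjusted p 0.866). ICOS stands at 1.82 with dieldrin and -0.02 with PMA on the unshrunken log2 scale in the authors' deposited table. Nearest to ARC were BTBD19 (0.12), the stress factor gene ATF3 (0.15), the heat shock co-chaperone gene DNAJB1 (0.15), FBXW12 (0.17) and CHAC1 (0.22), a glutathione-degrading enzyme gene of the stress response. Among these FBXW12, at a mean of 9.92 normalised counts, did not pass with dieldrin in the authors' test (adjusted p 0.569). ATF3 stands at 1.81 with dieldrin and 0.66 with PMA on the unshrunken log2 scale in the authors' deposited table. On the shrunken scale 0 of the 5 nearest to NPAS4 and 1 of the 5 nearest to ARC were the same. There the nearest to NPAS4 were NR4A3 (0.11), an orphan nuclear receptor gene, NFKBID (0.15), an NF-kB regulator gene, ZFP36L1 (0.30), an mRNA decay gene, FOS (0.36) and JUND (0.38), both AP-1 genes.

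Genes next to the members on the chromosome were also examined. Around NPAS4, 14 genes start within 100 kb, 11 of them were tested and 0 rose with dieldrin. Since 1.28% of all tested genes were higher and 1.02% lower with dieldrin, a count of 0 among 11 is near the background. B3GNT1, a glycosyltransferase gene that starts 73312 bp upstream, fell by 0.37 ± 0.082 (SE, shrunken log2) in the authors' deposited table (adjusted p 0.000733). RP11-867G23.10, transcribed in the same direction and ending 3867 bp before NPAS4, stands at 0.35 ± 0.11 (SE, shrunken log2) with dieldrin and an adjusted p of 0.0706, and at -0.04 ± 0.11 with PMA, in the authors' deposited table. MRPL11, a mitochondrial ribosomal protein gene whose end faces NPAS4 across 8368 bp, stands at -0.07 ± 0.057 with dieldrin in the authors' deposited table. BRMS1, DPP3, BBS1, SLC29A2, RIN1, PELI3, CTD-3074O7.5 and RP11-867G23.8 did not pass with dieldrin either. With PMA 0 of the 11 passed in the authors' test, and B3GNT1 alone had an unadjusted p under 0.05. Of all tested genes 0.528% were higher and 0.0908% lower with PMA. Around ARC 6 genes start within 100 kb and 2 were tested, JRK at -0.26 ± 0.088 (adjusted p 0.105) and PSCA at 0.05 ± 0.10 (adjusted p 1.00) with dieldrin, on the shrunken log2 scale of the authors' deposited table. Neither passed with PMA.

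**Figure D4:**
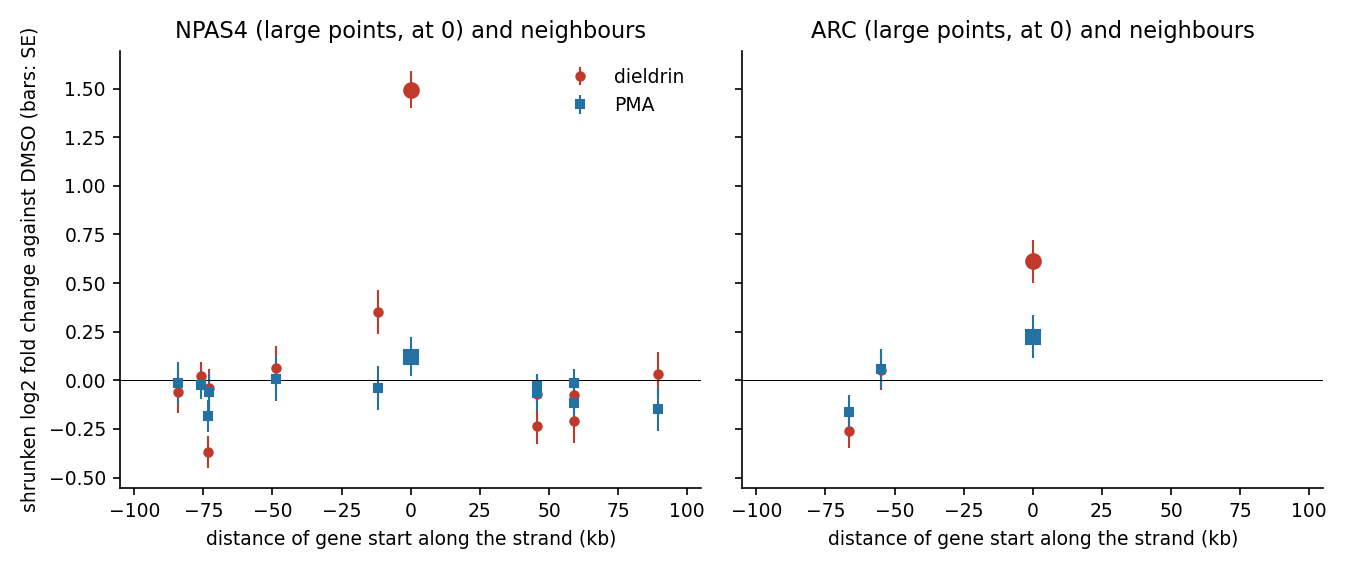
Shrunken log2 fold change against DMSO, with its SE, of the tested genes that start within 100 kb of NPAS4 (left) or ARC (right), by distance along the strand of the member. Circles are dieldrin and squares PMA, and large symbols at 0 are the members. NPAS4 with dieldrin lies at 1.50 while the highest neighbour is at 0.35.

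The site lists come from other libraries than the poly(A) values, and each rests on 1 library, so no test is possible. Sites of divergent transcription are stretches where transcripts leave in both directions, as at many promoters and enhancers, and the lists give positions with no score. The dieldrin list holds 118474 sites and the DMSO list 113689, with median widths of 255 and 254 bp. At NPAS4 the dieldrin list has 0 sites in the gene or within 10 kb of its start, and its nearest site lies 11701 bp upstream of the start. The DMSO list has 2 sites there, both inside the gene. The first is chr11:66188737-66189177, 262 to 702 bp downstream of the start, and the second is chr11:66189816-66190243, 1341 to 1768 bp downstream. So NPAS4 RNA was higher with dieldrin, while the gene held listed sites with DMSO and not with dieldrin.

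At ARC both lists have 2 sites inside the gene. The dieldrin sites are chr8:143695824-143696223, 610 to 1009 bp downstream of the start, and chr8:143694884-143695496, 1337 to 1949 bp downstream. The DMSO sites are chr8:143696242-143696328, 505 to 591 bp downstream, and chr8:143695295-143695615, 1218 to 1538 bp downstream. The farther sites of the 2 lists share 202 bp, and the nearer ones do not overlap. Inside the gene the listed sites span 1013 bp with dieldrin and 408 bp with DMSO. The other dieldrin site within 10 kb, chr8:143703427-143703554, lies 6594 bp upstream of the start. In which exon or intron these sites fall was not analysed here.

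Among the 19280 genes tested with dieldrin, 70.3% have a site in the gene in both lists, as ARC does, 6.17% in the dieldrin list only, 6.86% in the DMSO list only, as NPAS4 does, and 16.7% in neither. Of the 246 genes that rose with dieldrin, 23 have a site in the dieldrin list only and 16 in the DMSO list only. Restricted to the 7218 tested genes that span at most 10 kb, as both members do, 9.35% have one in the dieldrin list only and 10.2% in the DMSO list only. For the 117 of these that rose, the shares are 12.0% and 9.40%. The state of NPAS4 was thus not rare among genes of its size, and 11 of the 117 had it.

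**Figure D5:**
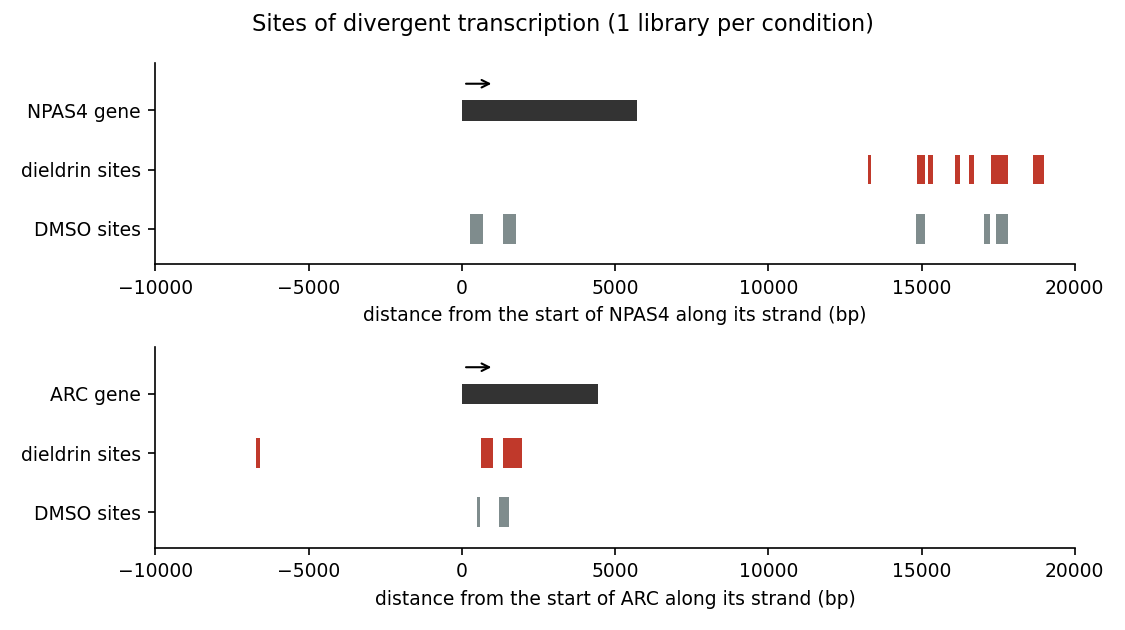
Listed sites of divergent transcription around NPAS4 (top) and ARC (bottom), by distance in bp from the start of the gene along its strand, with the dieldrin list above the DMSO list. The dark bar is the gene and the arrow its direction. NPAS4 holds 2 DMSO sites and 0 dieldrin sites, and ARC holds 2 of each.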

How the data were processed

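Per the labels' protocols, phenol-chloroform RNA was made into cDNA with random hexamer primers. STAR, edgeR and the build hg19 appear in the submitters' processing notes. Not given in the sources used here are the counting tool, its use of strand, the annotation release and the site caller. Per the file headers, the authors' tables hold log2 fold changes with and without shrinkage, a signal (mean normalised count), a standard error and Wald statistic (score), a p-value and an adjusted p-value. Those column names are not edgeR's, and how the 2 fit together is not stated. The design assumed that counts might be present; no values per library were used, so no model was fitted, the depth of each library is unknown, and the authors' changes and p-values were taken as they stand.

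Means per group were worked out from the mean over 9 libraries and both unshrunken changes. CPM is a gene's share of the summed means. GENCODE v29 supplied exon lengths for 41842 of 44416 gene IDs; its coordinates were not used. The members and the 10 lists (201 symbols, 200 found) were chosen with earlier results of these data known. Named genes were the called list members of smallest p (up to 4 per list and comparison), else the 2 of highest mean, the tested neighbours and the 5 nearest by pattern; others are marked in the text. Sites are counted from 1 and overlap when they share at least 1 bp. Python 3.11.15, matplotlib 3.10.9, scipy 1.17.1, pandas 2.3.3 and numpy 2.4.6 were used, and the steps were tested on simulated data.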

Additional observations from a re-analysis of the deposited data

How the results depend on the processing

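With the unshrunken change, a threshold of 0.01, an adjustment over all genes with a p, or the rescaled statistic, NPAS4 and ARC kept their direction and their side of the threshold in both comparisons; at 1 CPM or more ARC is not tested and NPAS4 kept both. The difference between dieldrin and PMA moved to 1.75 for NPAS4 and 1.02 for ARC with unshrunken log2 changes, by the construction of shrinkage. At a threshold of 0.01, 0 calcium channel genes and 0 ARC partners were lower with dieldrin and 0 gag-derived genes higher with PMA, against 1 each at 0.05, and the first 2 counts were also 0 adjusted over all genes with a p. With the rescaled statistic 1 inducible factor was lower with dieldrin, and 1 inducible factor, 1 gag-derived gene and 1 T cell marker were lower with PMA, against 0 each. That setting also gave 11 inducible factors and 3 effectors higher with PMA, against 8 and 2. Within 50 kb in place of 10 kb, NPAS4 had 16 dieldrin and 14 DMSO sites and ARC 25 of each; at 2 kb ARC had 2 dieldrin sites and the other counts were as at 10 kb. Requiring 50% of each site, 0 dieldrin sites at ARC were shared with DMSO in place of 1. Leaving out single libraries and refitting with another tool were not run, because no values per library were used. No paired analysis was possible because the tables hold comparisons, without values per library. A pair of single libraries limits the site lists, and low counts limit ARC.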
